A study of Mus musculus with 27 samples.

Results

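The step between 1 h and 2 h of lipopolysaccharide (LPS) was examined in chromatin-associated RNA of mouse bone marrow-derived macrophages (BMDMs), primary macrophages grown from marrow. The genes described are those that reached 10 normalised read counts in 3 or more of the 6 libraries at these times, 10982 of the 45070 genes in the table, chosen without regard to whether they changed. Both groups, LPS 1 h and LPS 2 h, held 3 libraries of wild type cells from young adult male C57/BL6 mice that had been kept for 1 h in DMSO and then received LPS at 10 ng/ml. The 5 other groups whose values are compared were untreated cells after 1 h in DMSO, LPS at 0.5 h and 4 h, and IL-4 at 10 ng/ml for 1 h and 2 h, each with 3 libraries of the same cells and vehicle. IL-4 at 0.5 h and 4 h, also with 3 libraries each, entered the filter for tested genes and the fits on all 27 libraries. The whole series has 27 libraries in 9 groups. The labels do not say whether replicates came from separate mice, so p-values measure the spread between these libraries, which may be technical.

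LPS, a component of the bacterial outer membrane, is bound by the receptor TLR4, which signals through the adaptors MyD88 and TRIF. The first arm activates NF-κB and the MAP kinases and induces primary response genes within minutes. The second arm activates the kinase TBK1 and the factor IRF3, which induce interferon-β. Secreted interferon-β binds its receptor IFNAR on the same and neighbouring cells, the kinases JAK1 and TYK2 phosphorylate STAT proteins, and a complex that holds STAT2 and IRF9 binds interferon-stimulated response elements. The genes it induces encode antiviral effectors, GTPases that attack intracellular pathogens, and the machinery that presents peptides on MHC class I. Chromatin-associated RNA is enriched for transcripts still being made, so it follows transcription more closely than total RNA does.

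The sums of normalised read counts were 3729642 to 3894624 at 1 h and 3954399 to 4058199 at 2 h, and the 10982 genes held 99.32% of them. These values were scaled by the authors and are not sequencing depths, and the depth of each library is unknown. The first principal component of the 6 libraries (67.7% of the variance) separated 1 h from 2 h, and the second (18.7%) separated replicate 1 from replicates 2 and 3 at both times. Among 796 genes averaging 1000 or more, the SD of the log2 ratio was 0.142 to 0.173 between replicates 2 and 3, and 0.373 to 0.405 between replicate 1 and either of them. All 9 macrophage identity markers were among the 10982 genes, against 2 of 11 neutrophil markers, 0 of 13 lymphocyte and NK markers, 1 of 6 dendritic cell markers and 2 of 12 mast cell, erythroid and stromal markers. Summed neutrophil markers were 11 to 88 at 1 h and 17 to 148 at 2 h, and summed mast cell, erythroid and stromal markers were 36 to 210 and 53 to 224, with the highest value at each time in replicate 1. At 0 in all 6 libraries were 3 of the neutrophil, 4 of the lymphocyte and NK, 1 of the dendritic cell and 4 of the mast cell, erythroid and stromal markers. The neutrophil markers Ngp and Ltf passed, summing to 59, 14 and 10 at 1 h and 117, 14 and 24 at 2 h. Col1a1 and Col1a2 also passed, summing to 199, 31 and 31 and to 200, 36 and 45. None of these genes was called with all libraries. Pecam1, tested but not one of the 10982 genes, was called higher (1.81, adjusted p = 0.000228). Of the dendritic cell markers, Zbtb46 fell from 90, 49 and 43 to 26, 9 and 10 (-2.02, adjusted p = 0.00626, and 0.0669 without replicate 2 in every group). In such bulk samples fewer cells of a type and less RNA per cell cannot be told apart, and the part of these other cells in the results was not tested.

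Within this hour 2695 of the 10982 genes rose (24.5%) and 2678 fell (24.4%), with median changes of 1.26 and -1.18 on the log2(value + 1) scale used for all fold changes here. Over all 13901 genes tested, 21.5% rose and 21.8% fell (limma, Benjamini-Hochberg adjusted p under 0.05) and the median change was 0.03. Rises of more than 4-fold numbered 633, and falls of more than 4-fold 526. Rises of more than 8-fold numbered 225, and falls of that size 117. The 3 values at 2 h lay entirely outside the range of the 3 at 1 h for 2580 of the genes that rose. The same held for 2603 of those that fell. Over all tested genes, the called ones included, 47.9% showed such a separation. The calls were made on these same values, so the separation largely follows from them and adds no support. Of the genes that rose, 255 reached 10 normalised read counts only at 2 h, and of those that fell, 288 did so only at 1 h, so that they entered through the group in which they are high. Without them 2440 rose and 2390 fell. Leaving out replicate 2 in every group gave 1961 rises and 1955 falls among all tested genes, and leaving out replicate 3 gave 1981 and 2043, against 2988 and 3035 with all libraries.

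**Figure D1:**
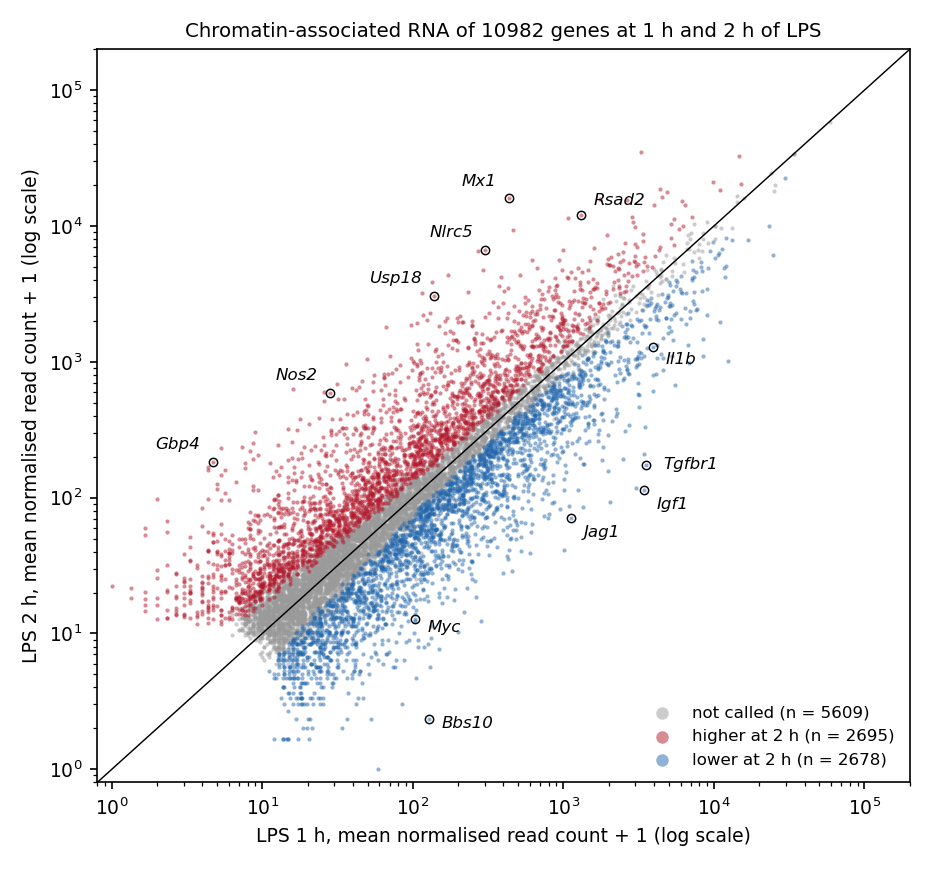
Mean normalised read count plus 1 of the 10982 genes at LPS 1 h (horizontal) and LPS 2 h (vertical), both on log axes, each point being the mean of 3 libraries. Red points rose (2695), blue points fell (2678), grey points were not called (5609), and the line marks equal values. Mx1, Nlrc5, Usp18, Gbp4, Nos2 and Rsad2 lie above the line, and Igf1, Tgfbr1, Jag1, Bbs10, Myc and Il1b below it.

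Of the 16 functional lists examined, the highest medians were those of 4 lists of interferon-responsive genes. Genes that rose made up 15 of 15 interferon-inducible GTPases, 44 of 45 antiviral effectors, 19 of 23 nucleic acid sensors and inflammasome genes and 16 of 18 genes of MHC class I presentation. Their median changes were 3.58, 2.63, 1.78 and 1.61. The lists of immediate early genes, macrophage lineage genes and feedback inhibitors had the lowest medians, -0.86, -0.36 and -0.35. Primary NF-κB target genes lay close to the median of all genes, at -0.05, with 5 rises and 11 falls among 32. Of all 10982 genes 24.5% rose and 24.4% fell, and counts near these shares do not set a list apart. No library here lacked interferon or its receptor, so the dependence of any rise on interferon was not tested.

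**Figure D2:**
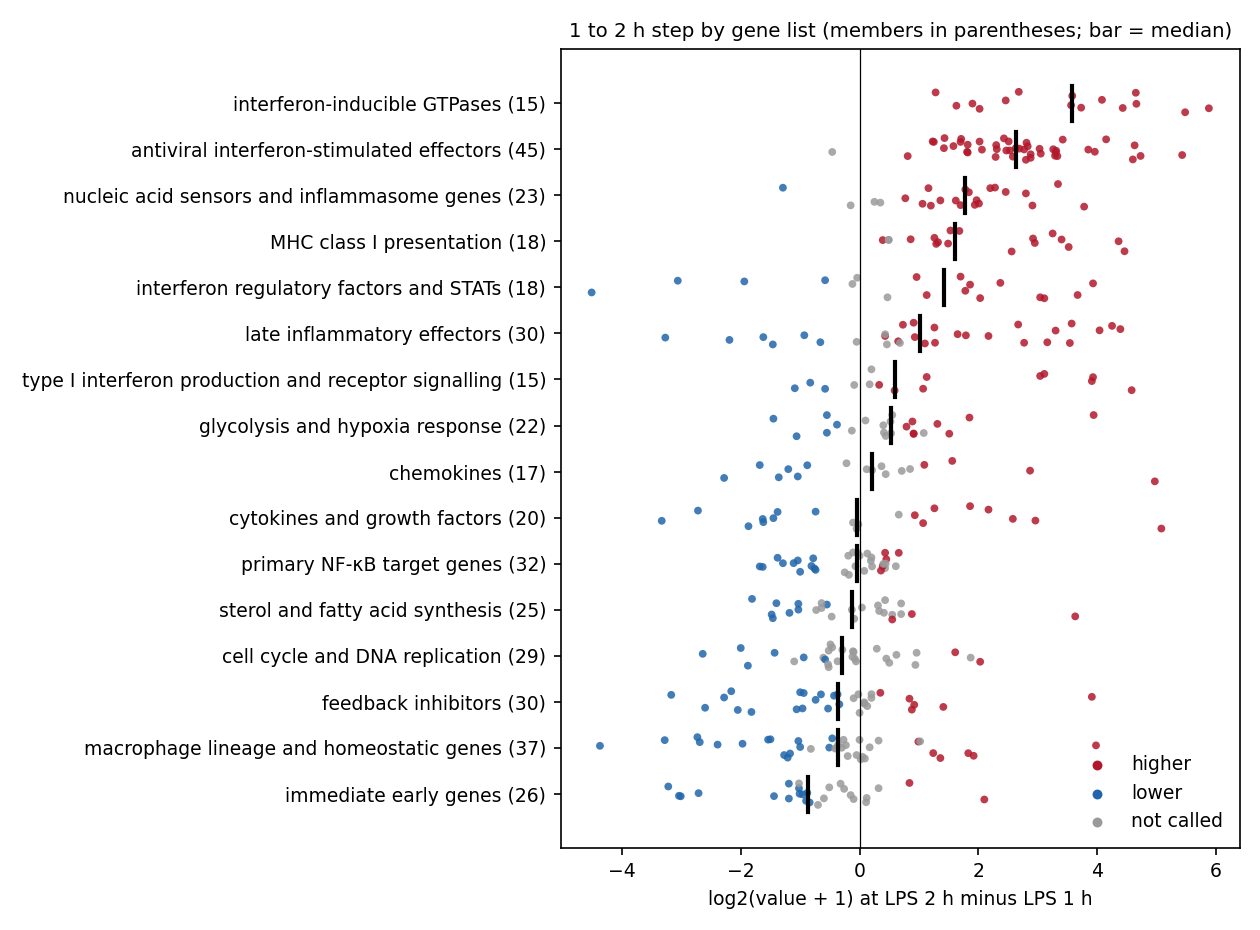
Change from LPS 1 h to 2 h, as the difference in log2(value + 1), of each gene in 16 functional lists (number of genes in parentheses), with red for rises, blue for falls, grey for genes not called and a black bar at each list's median. The 4 interferon-responsive lists at the top have medians between 1.61 and 3.58, and the immediate early genes at the bottom have a median of -0.86.

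The interferon-β gene itself moved the other way from most genes of the interferon-responsive lists. Ifnb1, which encodes interferon-β (chromosome 4, 88522025 to 88522794), was at 0 in the 3 untreated libraries. It was detected at 10, 2 and 3 normalised read counts after 0.5 h and at 17, 16 and 5 after 1 h. By 2 h the libraries held 2, 1 and 0, and by 4 h all 3 held 0. The 1 h and 2 h values did not overlap, and the log2 difference was -2.75 (SE 0.54, adjusted p = 0.000658). It reached 10 in only 2 of the 6 libraries and is therefore not one of the 10982 genes. The genes Ifna1, Ifna2 and Ifna4 were not among them either. The levels are low, and the 4 h value of 0 describes what was detectable and not the absence of transcription.

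Of 15 genes of type I interferon production and receptor signalling 9 rose, 3 fell and 3 were not called, with a median change of 0.59. The 3 falls were those of Ticam1, Ticam2 and Irf3. Ticam1, which encodes TRIF, went from 189, 188 and 171 to 61, 106 and 96 (log2 change -1.09, SE 0.22, adjusted p = 0.00072), with no overlap. Its bridging adaptor Ticam2 went from 226, 202 and 176 to 101, 129 and 108 (-0.83, adjusted p = 0.00162). Irf3 fell less, from 41, 50 and 52 to 25, 39 and 32 (-0.58, adjusted p = 0.0218), and its call was lost without LPS 1 h replicate 2 or 3 or LPS 2 h replicate 1, with adjusted p up to 0.205 over all alternatives. The kinase genes Tbk1 (0.20) and Jak1 (0.17) and the receptor gene Ifnar1 (-0.09) were not called, while Tyk2 rose by 1.07 and Ikbke by 0.59.

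Stat2 and Irf9, which join in the complex described above, both rose. Stat2 rose 8.06-fold, from 451, 328 and 246 to 2300, 3112 and 2851 (3.04, SE 0.19, adjusted p = 4.49e-09). Replicate 1 was its highest library at 1 h and its lowest at 2 h, and the groups did not overlap. Irf9, the DNA-binding partner of STAT2, rose less, from 137, 100 and 98 to 223, 240 and 268 (1.13, SE 0.16, adjusted p = 2.56e-05).

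Genes of feedback on this pathway rose as well. Usp18, a protease that removes ISG15 from proteins and restrains signalling at the receptor, rose 22.2-fold from 220, 109 and 83 to 2551, 3433 and 3165 (4.58, SE 0.28, adjusted p = 3.94e-09). Socs1, an inhibitor of JAK kinases, rose 13.8-fold from 20, 4 and 10 to 155, 155 and 159 (3.91, adjusted p = 7.23e-06). Irf7, the factor that widens the interferon-α response, rose 15.1-fold from 54, 48 and 27 to 528, 711 and 704 (3.93, SE 0.25, adjusted p = 5.94e-09). None of the 3 was called higher at 0.5 h: against untreated cells, Usp18 differed by -1.14 (adjusted p = 0.00262), Socs1 by 0.67 (0.26) and Irf7 by 0.22 (0.476). Usp18 overlaps the non-coding gene Gm44148 (108, 46 and 43 at 1 h, 1598, 1992 and 1847 at 2 h), and since it is not stated that the counting used strand, reads of the pair may be shared.

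Of 18 interferon regulatory factors, STATs and partners 11 rose and 4 fell. Irf1, a primary response gene and itself an activator of interferon-responsive promoters, had a course with a dip. Its values of 1303, 742 and 862 after 0.5 h had come down to 676, 385 and 280 by 1 h. They then rose to 1725, 1413 and 1439 by 2 h, and the 4 h libraries held 757, 491 and 438. Its change from 1 to 2 h was 1.86 (SE 0.28, adjusted p = 5.42e-05). Irf8, a factor of the myeloid lineage, was at 340, 254 and 261 in untreated cells and at 63, 37 and 45 after 0.5 h, and it rose in the step from 489, 207 and 227 to 1895, 1193 and 1412 (2.37, SE 0.28, adjusted p = 4.59e-06). Batf2, a basic leucine zipper factor, rose 13.3-fold, from 18, 11 and 15 to 213, 197 and 177. The falls included Stat6, the transducer of IL-4 and IL-13, from 396, 420 and 429 to 108, 125 and 91 (-1.94, SE 0.15, adjusted p = 4.34e-08), and Irf4, from 37, 55 and 56 to 6, 4 and 5 (-3.06, SE 0.43, adjusted p = 2.96e-05). Irf2bp2, which encodes a partner of the repressor IRF2, fell from 94, 118 and 99 to 3, 3 and 5 (-4.51, SE 0.29, adjusted p = 7.05e-09).

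Of the 45 antiviral effector genes 44 rose. Mx1, a gene of the dynamin-like GTPase family (chromosome 16, 97447035 to 97462906), rose 37.1-fold from 792, 272 and 233 to 17290, 14734 and 16096 (5.43, SE 0.32, adjusted p = 3.24e-09). Its neighbour and paralogue Mx2 rose 9.0-fold, from 2643, 1466 and 1130 to 15159, 15213 and 16763. Rsad2, which encodes viperin, rose from 2148, 1036 and 757 to 13727, 11157 and 11164 (3.33, SE 0.30, adjusted p = 2.89e-07). Cmpk2, which lies next to Rsad2 and encodes a nucleotide kinase, rose 16.4-fold from 468, 227 and 176 to 5481, 4409 and 4407. Samhd1, which depletes deoxynucleotides, was below its untreated level (551, 597 and 595) at 1 h (366, 230 and 216) and rose 24.2-fold to 6003, 6804 and 6814 at 2 h (4.63, SE 0.16, adjusted p = 3.05e-11). Epsti1 followed the same course, from 603, 520 and 612 in untreated cells to 243, 150 and 118 at 1 h and 4216, 4197 and 4624 at 2 h.

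Several genes of this list had already left their untreated level at 1 h, and their changes in the step were smaller than that of Mx1. Ifit1, an RNA-binding inhibitor of translation, was at 7, 8 and 11 in untreated cells and rose from 349, 257 and 180 to 1682, 1542 and 1687 (2.69), Ifit2 from 277, 105 and 63 to 2375, 1411 and 1673 (3.85), and Oasl1 from 313, 226 and 218 to 1512, 1458 and 1498 (2.58). Znfx1, an RNA helicase gene, had the smallest rise, from 951, 1025 and 989 to 1585, 1808 and 1808 (0.81, SE 0.12, adjusted p = 5.9e-05). Isg15, the ubiquitin-like modifier, rose from 60, 52 and 36 to 159, 100 and 140 (1.42, SE 0.41, adjusted p = 0.0109), and this call was lost without LPS 1 h replicate 3 (adjusted p 0.0513) or without replicate 3 in every group (0.17). Ifitm3, which restricts viral entry, rose from 33, 21 and 23 to 48, 68 and 68 (1.23, adjusted p = 0.00313) and lost its call without replicate 3 in every group (0.0817). Ifit3, Ifit3b, Ifit1bl1, Ifitm6 and Ifi44l did not reach the minimum of 10, and since reads with several hits had been removed, near-identical copies such as the Ifit and Oas genes are counted with uncertainty.

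At 1 h replicate 1 was the highest of the 3 libraries for 39 of the 45 antiviral genes. The list summed to 23531 there, against 17694 and 16316 in replicates 2 and 3. At 2 h it was the highest for 12 and the lowest for 30, with sums of 126220, 125144 and 129690. Within a replicate number, the median change over the list was 2.20 in replicate 1, 2.68 in replicate 2 and 2.96 in replicate 3. Over the alternatives that kept all 45 genes, 42 to 44 of them rose.

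Matches to the letters of the interferon-stimulated response element, at which the complex of STAT2 and IRF9 binds, are shown for promoters of genes that rose. Which factor binds a match was not tested. The letters GAAANNGAAA were searched on both strands of RefSeq promoters (GRCm38.p6, 250 bases before to 50 after a start), with overlapping matches allowed and genes matched by gene ID. Of the 41 rises named by the rules given under processing, 29 had a promoter in that table and 11 of these held the letters. The matches of Phf11a and Ddx58 are not shown. Each line below gives 30 bases read 5′ to 3′ along the gene's strand, with the match in capitals.
Isg15, chr4:156200871-156200900, minus strand: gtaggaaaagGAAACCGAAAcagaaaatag
Ifit1, chr19:34640794-34640823, plus strand: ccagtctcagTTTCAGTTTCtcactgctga
Rsad2, chr12:26456553-26456582, minus strand: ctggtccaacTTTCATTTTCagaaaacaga
Stat2, chr10:128270266-128270295, plus strand: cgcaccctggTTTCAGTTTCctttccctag
Gbp2, chr3:142620594-142620623, plus strand: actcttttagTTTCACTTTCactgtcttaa
Gbp5, chr3:142496759-142496788, plus strand: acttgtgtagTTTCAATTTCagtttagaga
Irgm1, chr11:48871425-48871454, minus strand: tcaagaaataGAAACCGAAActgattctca
Socs1, chr16:10785594-10785623, minus strand: gccggaaagaGAAACCGAAAgcgggggtgg
Cxcl10, chr5:92349083-92349112, minus strand: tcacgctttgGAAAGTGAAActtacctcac

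In Isg15, Irgm1 and Socs1 the shown match overlaps another one, the GAAA unit being repeated at a spacing of 6 bases, with 3 overlapping matches in Isg15. Ifit1 holds a second match further upstream. The letters occurred in 3.44% of all 32851 promoters and in 3.49% of those of the protein-coding genes described here. They were in 6.53% of the promoters of protein-coding genes that rose, 13.1% of those that rose by more than 4-fold, and 18% of those that rose by more than 8-fold. The share was 2.06% among genes that fell and 2.7% among those not called. By list, 14 of 34 antiviral genes with a promoter in the table held them, and 8 of 9 GTPase genes. The letters TTCNNNGAA, the core of the interferon-γ activated site, were in 8.3% of all promoters and 6.83% of those of the protein-coding genes described here. The share was 10.4% for rises of more than 4-fold, 12.6% for rises of more than 8-fold and 7.38% for falls of more than 4-fold. By list, 8 of 34 antiviral genes with a promoter in the table and 5 of 9 GTPase genes held them. The NF-κB letters GGGANNTTCC were in 1.47% of all promoters and 1.7% of those of the protein-coding genes described here. Their share was 1.63% for rises of more than 4-fold, 2.99% (5 of 167 promoters) for rises of more than 8-fold and 1.43% for falls of more than 4-fold. They were in 3 of the 34 antiviral genes and 2 of the 9 GTPase genes. A match is a description of the sequence and not evidence of binding. The spacing of 6 bases was read from the start positions of the matches.

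The interferon-inducible GTPases, which coat and disrupt the vacuoles of intracellular pathogens, had the largest median of the lists. Iigp1 had the largest rise of any gene that met the limits for naming, from 36, 4 and 5 to 835, 550 and 490 (5.88, SE 0.58, adjusted p = 6.8e-07). Its 1 h value was carried by replicate 1. Gbp4 rose from 6, 4 and 1 to 200, 184 and 166 (5.48, SE 0.39, adjusted p = 2.23e-08), and Igtp 24.3-fold, from 40, 18 and 16 to 549, 631 and 616. Irgm1, a regulator of the other IRG proteins, rose 12.9-fold, from 146, 99 and 70 to 1157, 1429 and 1468. Irgm1 and Igtp had been lower at 0.5 h than in untreated cells, by -1.28 and -1.32 (adjusted p = 0.000494 and 0.00271).

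The guanylate-binding proteins were not uniform in their timing. Gbp5 had already gone from 22, 27 and 23 in untreated cells to 2368, 1811 and 1638 at 0.5 h, stood at 3202, 2877 and 2606 at 1 h, and rose 3.72-fold to 10552, 11062 and 10673 at 2 h (1.90, SE 0.13, adjusted p = 1.33e-08). Gbp2 behaved likewise, with 277, 269 and 263 after 0.5 h and a rise in the step from 516, 473 and 408 to 2150, 2744 and 2835 (2.46). Gbp4 by contrast was at 4, 2 and 2 at 0.5 h against 4, 5 and 2 in untreated cells. Gbp7 rose from 227, 195 and 210 to 535, 730 and 707 (1.63). The smallest rise was that of F830016B08Rik, from 22, 14 and 10 to 54, 34 and 27 (1.28, adjusted p = 0.00291), lost without replicate 2 in every group (0.0565).

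Among the nucleic acid sensors, Ddx58, which encodes RIG-I, rose from 282, 234 and 229 to 1609, 1924 and 2073 (2.91, SE 0.15, adjusted p = 6.88e-10). Ifih1, which encodes the related sensor MDA5, had risen before: from 3353, 1985 and 1352 after 0.5 h it had reached 9702, 8746 and 8495 by 1 h. The 2 h libraries held 10723, 10173 and 11050, and its change of 0.25 in this hour was not called (adjusted p = 0.414). The endosomal RNA receptor Tlr3 rose 14.7-fold from 12, 6 and 5 to 88, 120 and 130, and Zbp1, a sensor of Z-form nucleic acid, 10.3-fold from 53, 34 and 37 to 348, 470 and 456. Nlrp3 was the only one of the 23 that fell, from 6062, 5202 and 5556 to 2311, 2376 and 2179 (-1.29, SE 0.12, adjusted p = 5.15e-07), having been highest at 0.5 h (16319, 15974 and 13463). Tlr9 (-0.15) and Mefv (0.35) were not called.

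In MHC class I presentation the largest rises were those of the regulator Nlrc5 and the non-classical gene H2-T22, with smaller changes in the classical heavy chain genes H2-K1 and H2-D1. Nlrc5, the transactivator of MHC class I genes (chromosome 8, 94472763 to 94527272), rose 22.1-fold from 323, 274 and 308 to 5899, 7363 and 6755 (4.46, SE 0.11, adjusted p = 1.05e-12), after 1 h values close to those of untreated cells (327, 334 and 380). Tap1, a subunit of the peptide transporter, rose from 154, 97 and 81 to 839, 1107 and 1146 (3.25), and Psmb9, an immunoproteasome subunit, from 15, 24 and 10 to 140, 225 and 208 (3.52). The non-classical gene H2-T22 rose from 17, 18 and 15 to 229, 435 and 475 (4.36). The classical heavy chain gene H2-K1 changed little, from 320, 333 and 286 to 408, 415 and 405 (0.39, SE 0.11, adjusted p = 0.00726), and its call was lost without replicate 2 or 3 in every group (adjusted p up to 0.141). H2-D1 went from 434, 324 and 272 to 565, 450 and 418 and was not called (0.49, adjusted p = 0.0529), but passed with the replicate block (adjusted p at or under 0.0405 in the 4 alternatives in which it did). Class I genes are closely related, and reads with several hits had been removed.

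**Figure D3:**
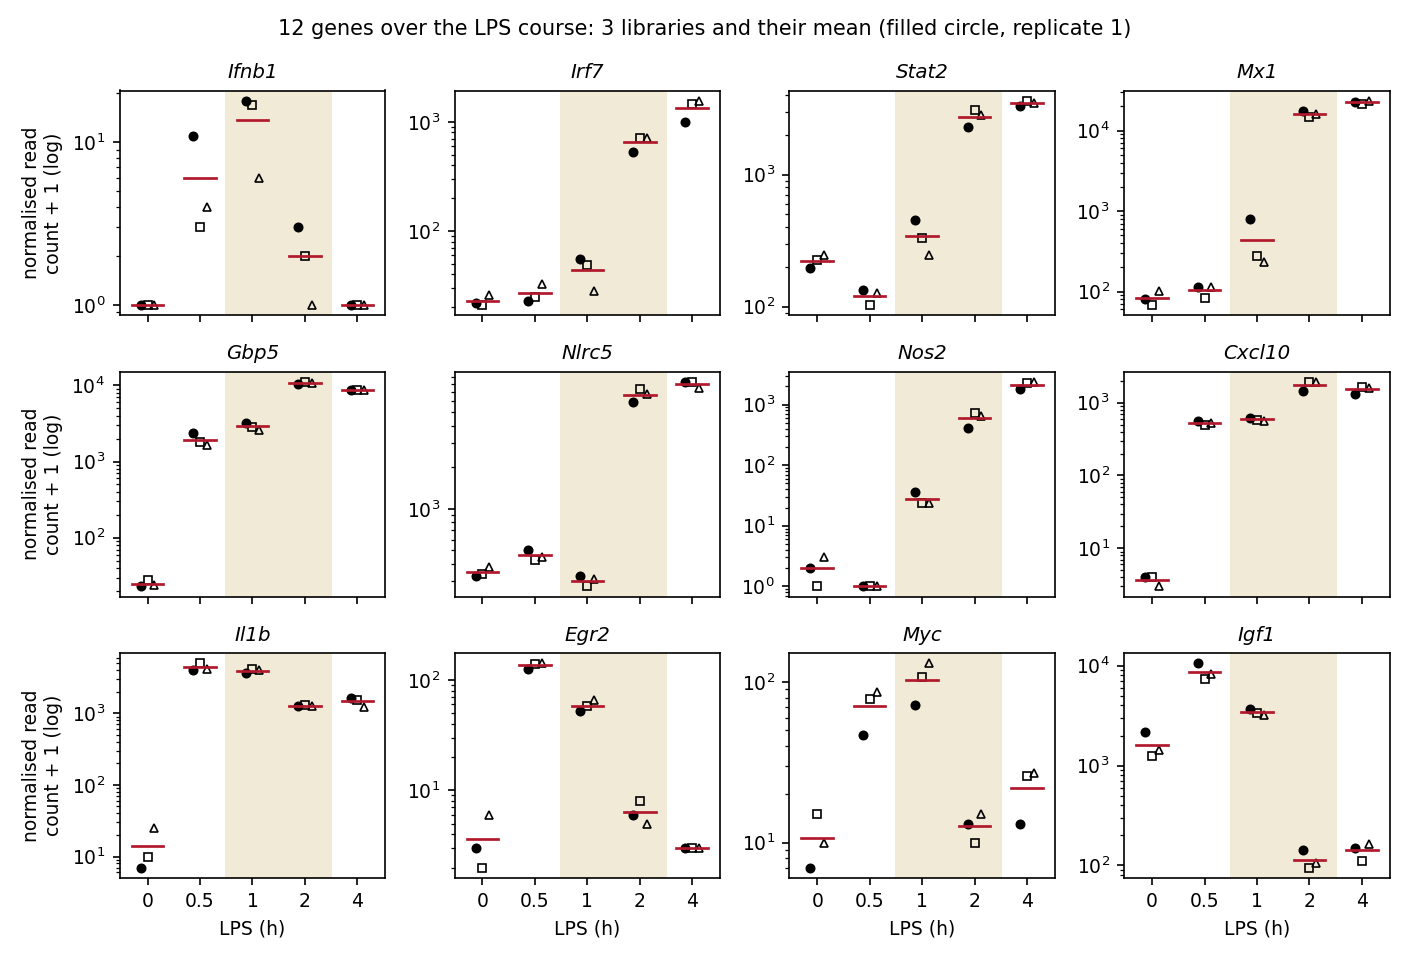
Normalised read count plus 1, on a log axis that differs between panels, of 12 genes in untreated cells (0) and after 0.5, 1, 2 and 4 h of LPS; symbols are the 3 libraries, with replicate 1 as a filled circle, the red line is their mean and the shaded band marks the 1 to 2 h step. Ifnb1 is highest at 1 h and at 2, 1 and 0 at 2 h, while Irf7, Stat2, Mx1, Nlrc5 and Nos2 rise within the band and Il1b, Egr2, Myc and Igf1 fall.

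Of 17 genes in the chemokine list 4 rose and 6 fell, beside 24.5% and 24.4% of all 10982 genes. The list includes the receptor gene Ccrl2 (0.85, adjusted p = 0.0629, not called). The 3 ligands of CXCR3, which attract activated T and NK cells, rose: Cxcl9 34.1-fold from 8, 4 and 2 to 164, 157 and 157 (4.97, SE 0.39, adjusted p = 6.62e-08), Cxcl11 from 60, 86 and 79 to 368, 663 and 674 (2.87), and Cxcl10 from 617, 585 and 559 to 1424, 1917 and 1920 (1.56, SE 0.15, adjusted p = 4.59e-07). Cxcl9 was low again at 4 h, at 30, 31 and 24. Cxcl2, a neutrophil attractant, fell from 434, 437 and 429 to 136, 127 and 142 (-1.68, SE 0.22, adjusted p = 1.77e-05). Cxcl1 went from 135, 121 and 83 to 43, 65 and 54 (-1.04, adjusted p = 0.0276), a call lost without LPS 1 h replicate 1 or 2 or LPS 2 h replicate 1 or 3 (adjusted p up to 0.145 over the alternatives). Ccl2, the monocyte attractant, fell from 264, 199 and 217 to 46, 40 and 51 (-2.28, SE 0.48, adjusted p = 0.00113). Ccl5 rose from 2367, 2127 and 2065 to 4311, 4579 and 5045 (1.09, adjusted p = 0.00764), a call lost without replicate 2 in every group (0.0537). Without replicate 1 in every group 7 genes of this list rose, and without replicate 2 in every group 3 fell.

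Among 20 cytokines and growth factors, 8 rose and 8 fell, and without replicate 2 or 3 in every group 4 fell. Tnfsf10, which encodes the death ligand TRAIL, rose 37.9-fold from 10, 8 and 6 to 235, 347 and 328 (5.08, SE 0.24, adjusted p = 3.66e-10). Il27, a subunit of interleukin-27, rose 4.51-fold from 305, 266 and 259 to 1318, 1219 and 1205, and Il6 rose 2.34-fold from 120, 72 and 72 to 209, 199 and 210 (1.26, adjusted p = 0.00273, and 0.0509 without replicate 3 in every group). Edn1 and Tnfsf15 rose from 6, 3 and 3 to 57, 26 and 33 and from 69, 50 and 40 to 356, 283 and 306. Il1b fell from 3663, 4173 and 4035 to 1272, 1312 and 1248 (-1.63, SE 0.31, adjusted p = 0.00043). Il12b, the subunit shared by interleukins 12 and 23, fell from 663, 535 and 451 to 175, 164 and 189 (-1.62, SE 0.19, adjusted p = 4.24e-06). Csf2, which encodes GM-CSF, went from 27, 15 and 17 to 3, 1 and 0 (-3.33, adjusted p = 6.4e-05). Tnf (1685, 1697 and 1538 to 1405, 1651 and 1508, -0.11, adjusted p = 0.702) and Il10 (179, 188 and 224 to 186, 190 and 191, -0.05, adjusted p = 0.89) were not called.

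Late inflammatory effectors rose in 20 of 30 cases and fell in 6, and without replicate 2 or 3 in every group 3 fell. Nos2, the inducible nitric oxide synthase, was at 0 in all 3 libraries after 0.5 h and rose in the step from 35, 23 and 23 to 413, 719 and 643, with 1820, 2232 and 2357 reached by 4 h. The change in the step was 4.39 (SE 0.33, adjusted p = 3.97e-08). Cfb, complement factor B, rose 22.9-fold from 5, 3 and 6 to 76, 112 and 132, and Cp, ceruloplasmin, 16.2-fold from 167, 106 and 100 to 2335, 1895 and 1814. Both stood higher still at 4 h, at 393, 515 and 530 and at 6419, 7899 and 8372. Acod1, the enzyme that makes itaconate, rose from 4717, 5378 and 5553 to 7880, 8562 and 8100 (0.65, adjusted p = 0.03), but the call was lost in 10 of 18 alternatives, among them those without LPS 1 h replicate 1 or 2 or without any one LPS 2 h replicate (adjusted p up to 0.122). Serpinb2 fell from 61, 58 and 64 to 10, 1 and 11 (-3.27, SE 0.59, adjusted p = 0.000284).

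Immediate early genes fell in 13 of 26 cases and rose in 2. Without LPS 2 h replicate 2 the falls numbered 8, and without replicate 2 or 3 in every group 6. Egr2 fell 10.8-fold from 51, 57 and 64 to 5, 7 and 4 (-3.22, SE 0.34, adjusted p = 1.42e-06), Egr1 from 19, 16 and 12 to 3, 0 and 1 (-3.04, SE 0.67, adjusted p = 0.00154), and Myc 8.77-fold from 71, 106 and 130 to 12, 9 and 14 (-3.01, SE 0.36, adjusted p = 5.9e-06). Egr1 and Egr2 had been at 291, 233 and 380 and at 124, 138 and 140 at 0.5 h. The rises were those of Mafk (95, 71 and 62 to 326, 314 and 332, 2.1) and Dusp2 (177, 102 and 125 to 248, 221 and 237, 0.84), the latter lost without replicate 2 or 3 in every group (adjusted p up to 0.0619). Ier2 went from 54, 38 and 33 to 18, 11 and 15 (-1.44), Ier3 from 67, 56 and 64 to 36, 24 and 43 (-0.88), Dusp1 from 1224, 1530 and 1800 to 553, 890 and 934 (-0.96) and Fos from 18, 18 and 12 to 8, 7 and 7 (-1.01). These 4 were called at adjusted p = 0.0135, 0.0109, 0.0325 and 0.0466. Each lost the call when single libraries were left out: Ier2 without LPS 1 h replicate 1 or LPS 2 h replicate 2, Ier3 without LPS 2 h replicate 2, Dusp1 without LPS 1 h replicate 2 or 3 or LPS 2 h replicate 1, and Fos without LPS 1 h replicate 1 or 2 or any one LPS 2 h replicate (adjusted p up to 0.121, 0.123, 0.151 and 0.288 over the alternatives). Junb (-0.32, adjusted p = 0.389) and Atf3 (0.32, adjusted p = 0.299) were not called. Atf3 was at 745, 420 and 394 at 1 h and passed at 0.0273 or below without LPS 1 h replicate 1 or without replicate 1 in every group.

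Of 32 primary NF-κB targets 16 were not called. Nfkbia, the inhibitor IκBα, was at 1340, 1868 and 1823 at 1 h and 1490, 2236 and 2056 at 2 h (0.20, adjusted p = 0.421, and 0.0415 without replicate 1 in every group). Tnfaip3, the ubiquitin-editing enzyme A20, was at 5167, 3643 and 3664 and then at 5002, 3572 and 4523 (0.08, adjusted p = 0.807). Nfkbiz fell from 6957, 7138 and 7330 to 3277, 4787 and 4333 (-0.81, SE 0.13, adjusted p = 7.65e-05), down from 16281, 15807 and 16819 at 0.5 h. Icam1 rose from 2080, 1923 and 1977 to 2732, 2762 and 2646 (0.45, adjusted p = 0.0034, and 0.11 without replicate 2 in every group). The 5 rises of this list became 10 without replicate 1 in every group, 1 without replicate 2 and 2 without replicate 3, while its 11 falls ranged from 8 to 12 over the alternatives.

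Feedback inhibitors of signalling and of mRNA stability fell in 16 of 30 cases and rose in 6, with 10 falls and 2 rises without replicate 3 in every group and 3 rises without replicate 2. Dusp4, a phosphatase of MAP kinases, fell from 50, 38 and 43 to 2, 7 and 4 (-3.17, SE 0.34, adjusted p = 1.81e-06). Trib1, a pseudokinase, fell from 272, 252 and 251 to 53, 59 and 46 (-2.28, SE 0.18, adjusted p = 6.94e-08), and Zfp36l1, an mRNA decay factor, from 69, 54 and 61 to 5, 11 and 14 (-2.60, SE 0.32, adjusted p = 7.14e-06). Among the rises were Socs1, described above, Cish, an inhibitor of cytokine receptor signalling, from 113, 168 and 209 to 296, 523 and 482 (1.41, adjusted p = 0.00695, and 0.0509 without replicate 3 in every group), and Ptpn2, a phosphatase of JAK and STAT proteins, from 444, 402 and 419 to 836, 795 and 762 (0.92, SE 0.11, adjusted p = 5.81e-06). Cish was at 27, 19 and 22 at 4 h. Socs3, raised by 5.89 at 0.5 h, was at 451, 336 and 405 and then at 483, 414 and 462 (0.20, adjusted p = 0.476).

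Macrophage lineage and homeostatic genes fell in 15 of 37 cases and rose in 6, with 12 to 18 falls and 6 to 7 rises over the alternatives. Among the falls, Adgre1 (-0.51, adjusted p = 0.0499) and Cd14 (-0.46, adjusted p = 0.0489) lost their calls in 13 and 12 of 18 alternatives. Fcgr1, the high-affinity IgG receptor, rose 16.1-fold from 53, 42 and 40 to 657, 719 and 794 (3.98, SE 0.21, adjusted p = 1.07e-09), and Axl, a receptor for apoptotic cells, from 435, 276 and 223 to 1352, 1134 and 953 (1.92, SE 0.26, adjusted p = 1.66e-05). Il4ra, the IL-4 receptor chain, rose from 1068, 735 and 858 to 2918, 2857 and 3643 (1.83, SE 0.19, adjusted p = 1.39e-06) while Stat6 fell. The scavenger receptor gene Cd36 fell 10.1-fold from 313, 517 and 628 to 34, 60 and 51 (-3.28, SE 0.35, adjusted p = 1.46e-06), and Csf1r, the receptor for M-CSF, fell from 753, 997 and 1018 to 427, 501 and 441 (-1.0, SE 0.13, adjusted p = 9.26e-06). Cx3cr1 went from 74, 91 and 101 to 2, 26 and 29 (-2.73, adjusted p = 0.00672).

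Pdk1, which restrains pyruvate entry into mitochondria, rose 20.4-fold from 3, 2 and 4 to 39, 78 and 67 (3.94, SE 0.31, adjusted p = 6.55e-08), against 49, 50 and 51 in untreated cells, and Pfkfb3, an activator of glycolysis, rose from 1364, 984 and 1172 to 3016, 3320 and 3663 (1.51, SE 0.16, adjusted p = 1.49e-06). Hif1a fell from 870, 1161 and 1255 to 544, 483 and 531 (-1.06, SE 0.15, adjusted p = 3.92e-05). In glycolysis and the hypoxia response 8 of 22 genes rose and 5 fell, and in sterol and fatty acid synthesis 3 of 25 rose and 8 fell. Over all 10982 genes the shares were 24.5% and 24.4%. The glycolysis rises numbered 13 with the replicate block and 5 without replicate 2 in every group. The glycolysis falls numbered 1 without LPS 1 h replicate 1, without LPS 2 h replicate 2 and without replicate 2 or 3 in every group, and 2 without LPS 2 h replicate 3. The sterol list had 5 rises with the replicate block, 6 without replicate 1 in every group and 1 without replicate 2 or 3 in every group. It had 3 falls without replicate 3 in every group, and 5 without LPS 1 h replicate 2 or 3, LPS 2 h replicate 1 or replicate 2 in every group. Elovl6, a fatty acid elongase, rose from 32, 6 and 14 to 155, 146 and 285 (3.63, SE 0.46, adjusted p = 1.09e-05) and was at 10, 15 and 16 at 4 h. Among 29 cell cycle genes 2 rose and 6 fell, no more than those overall shares. There were 6 rises in the fit with the replicate block, and without replicate 1 in every group 5 rose and 10 fell. Cenpe, a kinesin of the kinetochore, went from 5, 93 and 82 to 20, 309 and 353 and was not called (1.87, SE 1.32, adjusted p = 0.282), but passed with the replicate block or without replicate 1 (adjusted p at or under 8.96e-06). Replicate 1 was the lowest library for 20 of these 29 genes at 1 h and for 22 at 2 h.

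Beyond the lists, the largest rises among protein-coding genes with a mean of at least 50 included immune genes outside the lists used. Slfn1, of the Schlafen family, rose 53.0-fold from 5, 6 and 2 to 272, 197 and 220 (5.51, SE 0.54, adjusted p = 5.75e-07), with the overlapping non-coding gene Gm51911 (2, 6 and 2 to 176, 147 and 152). Serpina3g, a serine protease inhibitor, was at 1 in each library at 1 h and at 83, 111 and 95 at 2 h (5.59, adjusted p = 5.46e-08). Phf11c and Phf11a rose from 3, 2 and 5 to 98, 213 and 194 and from 14, 4 and 5 to 208, 255 and 287 (5.27 and 5.02). Zfp366, a zinc finger gene, was at 1, 0 and 1 and then at 61, 46 and 68 (5.21), and Aldh1l1, a folate enzyme, at 0, 1 and 1 and then at 33, 65 and 59 (5.01), having been at 15, 26 and 19 in untreated cells. Tldc2 rose 36.9-fold from 8, 7 and 4 to 194, 223 and 284 (5.03). Serpina3g and the Phf11 genes belong to families of close paralogues.

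The largest falls included Irf2bp2, given above, and the genes that follow. Tgfbr1, the type I receptor for TGF-β, fell 20.4-fold from 3610, 3459 and 3603 to 220, 151 and 151 (-4.37, SE 0.25, adjusted p = 2.17e-09), and Smad3, a transducer of that receptor, 25.1-fold from 1311, 931 and 771 to 54, 31 and 35 (-4.62, SE 0.27, adjusted p = 3.09e-09). Igf1, the growth factor, fell 30.3-fold from 3726, 3348 and 3229 to 142, 94 and 104 (-4.93, SE 0.21, adjusted p = 2.45e-10), after 10575, 7313 and 8234 at 0.5 h. Jag1, a Notch ligand, which had been at 43, 30 and 18 in untreated cells, fell 16.2-fold from 1078, 1156 and 1151 to 88, 57 and 64 (-4.02, SE 0.24, adjusted p = 3.17e-09). Bbs10, a chaperonin-like protein of cilia, went from 127, 119 and 135 to 1, 0 and 3 (-6.0, SE 0.40, adjusted p = 1e-08), after 15, 16 and 17 at 0.5 h, with 32, 19 and 27 in untreated cells and 5, 9 and 8 at 4 h, so that 1 h was its highest time. The non-coding gene Gm40760, which lies next to Bbs10, was at 69, 54 and 49 at 1 h and at 0 in the 3 libraries at 2 h, at least 19.1-fold lower (against a floor of 3 normalised read counts per library).

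Ankrd28, Cd109, Kcnk13 and Rab3gap2 also had their highest values at 1 h. Ankrd28, which encodes a phosphatase subunit, stood at 461, 873 and 519 after 0.5 h and fell in the step from 2193, 3250 and 3647 to 113, 110 and 125 (-4.66, SE 0.24, adjusted p = 7.83e-10). Cd109, a membrane protein that binds TGF-β, was at 20, 43 and 27, then 202, 317 and 323, then 13, 10 and 11 (-4.49). The potassium channel gene Kcnk13 fell 16.5-fold from 4053, 3283 and 3019 to 268, 159 and 199, and Rab3gap2 16.2-fold from 1275, 1367 and 1432 to 75, 101 and 76. Ifitm10 went from 31, 71 and 54 to 2, 0 and 2 (-4.59) and Slc7a15 from 164, 135 and 149 to 8, 9 and 3 (-4.40). Non-coding genes that overlap these loci fell with them, among them Gm51710 within Smad3 (116, 74 and 62 to 2, 1 and 3) and Gm32435 at Tgfbr1 (2199, 1885 and 2025 to 122, 69 and 84), as did Gm46202 at Plxna2 (210, 105 and 72 to 9, 3 and 2). Gm51584 within Nlrc5 rose from 37, 35 and 33 to 897, 1022 and 973, and Gm51892 from 9, 2 and 1 to 112, 99 and 131. Whether the counts of overlapping genes are separate transcripts cannot be told apart here.

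The change from untreated cells to 0.5 h was set beside the step. The untreated and 0.5 h libraries do not enter the means compared in the step, but they do enter the estimate of the spread behind its calls, and with the compared groups alone 2646 genes rose and 2708 fell among all tested genes. Of the genes that rose from 1 to 2 h, 466 (17.3%) were higher at 0.5 h than in untreated cells and 1207 (44.8%) were lower, with a median of -0.37. Of those that fell, 1125 (42%) were higher and 447 (16.7%) lower, with a median of 0.34. The background over all tested genes was 19.6% higher and 34.4% lower, with a median of -0.24. The balance of higher and lower calls at 0.5 h depends on scaling. With libraries set to equal totals, 9.02% of the genes that rose in the step were higher at 0.5 h and 64.3% lower, 25.9% and 34.4% of those that fell, and 11.7% and 52.2% of all tested genes. With median-of-ratios factors these shares were 23.8% and 36.5%, 50.7% and 11.8%, and 25.4% and 27.4%. Under each of the 3 scalings the median at 0.5 h was below that of all tested genes for the genes that rose (-0.37 against -0.24, -0.87 against -0.73, -0.15 against -0.01) and above it for those that fell (0.34, -0.16 and 0.58).

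From 1 to 2 h of IL-4, 881 of the tested genes changed (6.34%), 293 up and 588 down, and 1508 changed in a fit that blocks on replicate number. This count was 1633 without replicate 1 in every group, 156 without replicate 2 and 178 without replicate 3. Of the 10982 genes, 827 changed after IL-4. The LPS step and the IL-4 step differed for 4596 tested genes (33.1%), 2377 with the higher step in LPS and 2219 with the lower. Among genes that rose after LPS the steps differed for 2027 (75.2%), among those that fell for 1839 (68.7%), and among those that rose by more than 4-fold for 616 of 633 (97.3%). The difference contains the same LPS step by which these genes were called, so high shares follow in large part from that choice. The steps differed, with the higher step in LPS, for 43 of 45 antiviral effectors and 15 of 15 GTPases, whose median IL-4 steps were both -0.11. Without replicate 2 or 3 in every group the number of differing genes was 2742 or 2655.

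Of the 2678 genes that fell after LPS, 308 fell and 62 rose after IL-4, and of the 2695 that rose, 111 rose and 121 fell, set beside 293 rises and 588 falls after IL-4 among all 13901 tested genes. Cd36 fell after IL-4 from 1114, 1827 and 2027 to 161, 124 and 169 (-3.41, SE 0.38, adjusted p = 2.33e-06), and the difference between the steps was 0.13 (SE 0.53, adjusted p = 0.894). Trib1 fell after IL-4 from 185, 132 and 140 to 37, 37 and 43 (-1.93, adjusted p = 1.43e-05), with a difference of -0.35 (SE 0.34, adjusted p = 0.486). Irf4, a factor of alternative activation, moved in opposite directions: after IL-4 it rose from 113, 85 and 86 to 230, 205 and 260 (1.29, SE 0.36, adjusted p = 0.0299), while LPS lowered it (difference -4.35, SE 0.51, adjusted p = 2.89e-07).

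**Figure D4:**
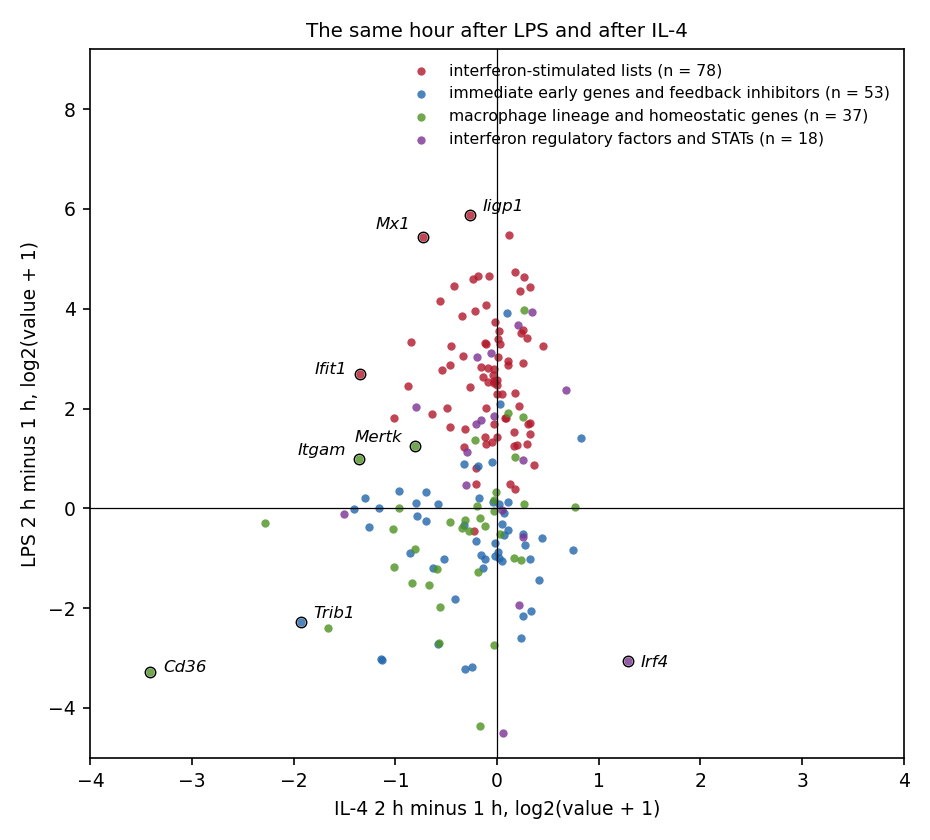
Change from 1 to 2 h of LPS (vertical) against the change from 1 to 2 h of IL-4 (horizontal), both as differences in log2(value + 1), for genes of the lists named in the key, 1 point per gene. Most interferon-stimulated genes lie above 0 on the vertical axis and between -1 and 1 on the horizontal one, Cd36 (-3.28 and -3.41) and Trib1 (-2.28 and -1.93) fall in both, and Irf4 (-3.06 and 1.29) falls after LPS and rises after IL-4.

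Gene length is given as a description, with no test. The median length of protein-coding genes was 33.7 kb for those that rose (2272 genes), 40.1 kb for those that fell (2205) and 22.7 kb for those not called (4657). Genes that rose by more than 4-fold had a median of 24.7 kb and those that fell by more than 4-fold 51.5 kb. The share that fell was 13.2% among genes of up to 5 kb and 38.9% among those over 200 kb. The share that rose was 17.2% up to 5 kb, 29.7% between 100 and 200 kb and 22.6% over 200 kb. Longer genes also had higher values, with a median log2 mean at 1 h of 4.5 up to 5 kb and 8.5 over 200 kb, and the part of level in these shares was not tested.

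**Figure D5:**
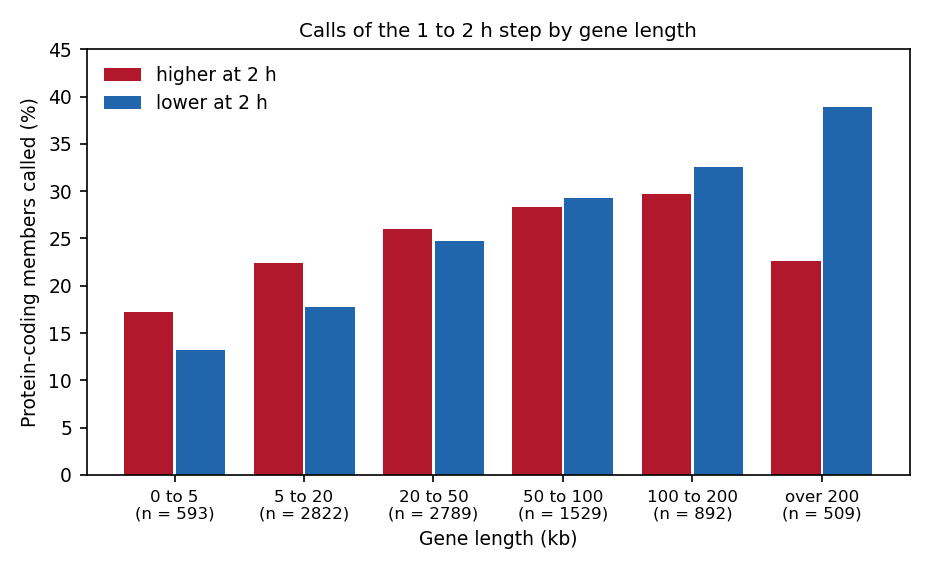
Percent of protein-coding genes that rose (red) or fell (blue) from LPS 1 h to 2 h in 6 classes of gene length in kb, with the number of genes under each class. Falls go from 13.2% in the shortest class to 38.9% in the longest, and rises from 17.2% to 29.7% between 100 and 200 kb and 22.6% above.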

How the data were processed

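The authors prepared random-primed SMART-seq2 libraries of chromatin-associated RNA. The authors aligned single-end reads to mm10 with TopHat2 2.1.1, removed multi-mapping reads and blacklisted regions (bedtools 2.29.2), counted reads per gene over RefSeq GRCm38.p6 and scaled the libraries on genes that did not vary. What was deposited is a whole-number table of such scaled counts, treated here as a score, so no count model was used, and DESeq2, planned for raw counts, was not run. Strand use in counting is not stated in the sources used here. All 27 sample columns were matched to samples.

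The test was limma 3.58.1 (R 4.3.3) on log2(value + 1), with a trended prior variance. P-values were adjusted (Benjamini-Hochberg, threshold 0.05) over 13901 genes that reached 10 in 3 or more of 27 libraries. The LPS step was fitted on the untreated and LPS libraries, the IL-4 step and the difference of steps on all 27. The impulse model of the study was not run. On simulated data for the LPS step (13901 genes, 200 changed, of mean at least 50) 95.5% of changed genes were recovered with 8 false calls. The simulated libraries were independent and shared a common spread, without the distance of replicate 1 from the others. Far fewer genes changed in them than in the real data. These figures therefore check that the fit runs and are not error rates for the real libraries.

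Named genes were the 12 largest rises and falls among protein-coding genes and 4 among non-coding genes (called, mean of at least 50 in the higher group, no overlap), 53 fixed genes, and up to 3 rises and 3 falls per list. Members, the 16 functional lists and the marker lists were chosen with earlier results of these data known. The replicate block treats same-numbered libraries as pairs. The deviations of same-numbered libraries at 1 h and 2 h from their group means correlated at 0.663, 0.502 and 0.482 over 6115 genes. Replicates 2 and 3 also correlated across numbers (0.459 and 0.409), close to the values within numbers. The correlations therefore set replicate 1 apart and do not establish that replicates 2 and 3 are paired by number. Promoter sequences are from RefSeq (GRCm38.p6). A few genes of these lists are not reported here.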

Additional observations from a re-analysis of the deposited data

Results flagged for a closer look

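The difference between the LPS step and the IL-4 step passed the test (limma, adjusted p under 0.05) for 4596 genes. Of the named genes, 7 passed it and also passed in each step, in opposite directions. IL-4 calls over all tested genes fell from 881 to 156 without replicate 2 and 178 without replicate 3 in every group. How the IL-4 calls of these 7 genes held under the alternatives is not given here. Irf4 fell after LPS and rose after IL-4, with a difference of -4.35 on the log2 scale. The others rose after LPS and fell after IL-4. The difference was 4.04 for Ifit1 (normalised read counts of 7, 7 and 6 after 1 h of IL-4, then 2 in each library), 3.34 for Gbp2 (16, 15 and 15, then 9, 9 and 6) and 2.53 for Gbp5 (72, 48 and 60, then 44, 37 and 33), so the IL-4 falls of these interferon-responsive genes took place at low values. It was 2.35 for Itgam, an integrin chain of macrophages (342, 346 and 330 to 740, 700 and 595 after LPS, 956, 1139 and 980 to 355, 396 and 445 after IL-4). For Mertk, a receptor for apoptotic cells, it was 2.05 (704, 654 and 597 to 2219, 1271 and 1277 after LPS, 2900, 2549 and 2301 to 1506, 1522 and 1377 after IL-4). For Slc7a2, an arginine transporter, it was 1.40 (517, 637 and 612 to 1044, 844 and 913, against 429, 530 and 495 to 245, 289 and 342).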

How the results depend on the processing

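No alternative reversed a named gene. Of 159 named genes, 37 changed their call under at least 1 of 18 alternatives (140 lost and 16 gained calls against 2668 kept). Restricting the test to 6115 genes with a mean of at least 50 gave 1909 rises and 1920 falls, since fewer genes were tested. Averaging replicates 2 and 3 gave 2127 rises and 2175 falls, and 71.4% of the main calls of the LPS step were kept. It also gave 2986 genes whose steps differed and 189 IL-4 calls. With the replicate block 3502 genes rose and 3484 fell, 5498 steps differed and 1508 IL-4 calls were made. Among named genes the block added calls for H2-D1, Traf1, Cenpe and Ngp and changed no other. Leaving out 1 replicate number in all groups gave 1961 to 3583 rises, 1955 to 3368 falls, 2655 to 5418 differing steps and 156 to 1633 IL-4 calls, the largest counts being those without replicate 1. The IL-4 count therefore depends on the settings most. The cause of these shifts was not tested. Setting the libraries to equal totals moved the median change of all genes from 0.027 to -0.041, and leaving out LPS 2 h replicate 1 moved it to 0.104. List medians moved by more than the spread between replicates in 44 of 306 cases. The depth of the libraries is unknown, so counting precision of low genes is not known either.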
